A study of Mus musculus with 23 samples.

Results

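The 34 genes described here are markers of leukocytes, the white blood cells that live in skeletal muscle and are carried along when muscle is taken apart for culture. They were chosen by name, as the 34 listed genes among the 36095 gene names on a mouse expression array, with Adgre1 read through its older name Emr1. Each gene is represented by its brightest probe, and 41 probes carry the 34 genes. By role they comprise 7 pan-leukocyte surface, cytoskeletal and transcription factor genes, 10 genes of macrophage receptors, lysosome and lysozyme, 3 complement C1q subunits, 4 Fc receptors and their adaptors, 2 subunits of the phagocyte oxidase, 4 genes of major histocompatibility complex (MHC) class II, 2 lymphocyte genes and 2 neutrophil calprotectin subunits.

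Macrophages are the most abundant leukocytes of resting muscle. They take up debris through scavenger and Fc receptors, digest it with lysosomal proteases and lysozyme, and make the C1q that starts the classical complement pathway. Some macrophages and dendritic cells also carry MHC class II, which shows peptides to helper T cells. A fresh culture of muscle cells can hold such cells beside the myoblasts, which are the dividing precursors of muscle fibres.

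RNA was measured on 23 one-colour arrays that fall into 7 groups of 3 samples and 1 single sample. The single sample was skeletal muscle of a male NOD/ShiLtj mouse, and the quadriceps group came from 1 male C57BL/6J and 2 male 129Sv/C57BL/6J samples. Myotubes were collected after 1, 2 or 4 days on Matrigel in medium with horse serum. They followed the proliferating myoblasts, which had been through 8 to 10 passages on collagen in medium with fetal bovine serum and basic fibroblast growth factor. Passage 0 myoblasts were primary cells at the start of culture on the same substrate, and all myoblasts and myotubes were from male C57BL/6J mice. Embryonic stem cells of the lines cGR8 (129Sv), RD1 (129X1/SvJ) and E14tg2 (129/Ola) made up the remaining group, with 2 arrays of E14tg2 averaged to 1 sample. The labels name no transgene or deletion in any group, and each stem cell sample was a different line. Sample names of the cultures carry a number (26, 30 and 42 at passage 0, and 21, 26 and 28 in the proliferating cells and myotubes) whose meaning is not given, and nothing says that replicates came from separate animals, so p-values measure only the spread between these samples.

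The level of a gene is given throughout as the log2 of its processed signal relative to the 75th percentile of the array, and a probe was taken as measured where the scanner software marked it well above background. Levels of different genes come from different probes and are not set against each other. Array signal at that percentile was 87.7 for proliferating replicate 1 and between 208 and 765 for the other arrays, so the background of that dim array lies at higher relative levels. The next lowest was day 4 replicate 1 at 208, which had the fewest spots above background. These were 39.1% there, 41.2% in proliferating replicate 1 and 43.1% to 60.1% on the other arrays. The correlation of proliferating replicate 1 with replicates 2 and 3 over all genes was 0.898 and 0.881, against 0.965 between those replicates. Cell type markers were present where the labels place them: all 10 satellite cell and myoblast genes were above background in every passage 0, proliferating, day 4 and muscle sample, and all 8 pluripotency genes were in every stem cell sample. Presence alone did not separate the groups, since 4 of the 8 pluripotency genes were also above background throughout the passage 0 or the proliferating samples. The number of arrays limits the precision of every value.

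Leukocyte genes were detected mainly in whole muscle and at passage 0. Of the 34 genes, 31, 30 and 26 were well above background in the 3 passage 0 samples, 12, 12 and 15 in the proliferating samples, and 12, 11 and 10 after 1 day of differentiation. Day 2 samples had 8, 11 and 13 and day 4 samples 5, 11 and 10. Of all non-control spots, 39.1%, 52.5% and 53.1% were above background in these day 4 samples. The shares were 53.8%, 54.3% and 58.6% at passage 0 and 54.0%, 48.4% and 43.6% in quadriceps. Quadriceps samples had 28, 27 and 23, NOD muscle had 27, and the stem cell lines had 18, 17 and 14. In all 3 samples of a group, 26 genes were above background at passage 0, 8 in proliferating myoblasts, 4 in day 4 myotubes, 23 in quadriceps and 14 in stem cells. Passage 0 and quadriceps shared 22 of these. The 14 genes detected in all stem cell lines included Laptm5, Coro1a, Mrc1, Cd14, C1qb, Fcer1g and 3 of the 4 class II genes, so a signal of these probes alone did not set muscle apart.

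**Figure D1:**
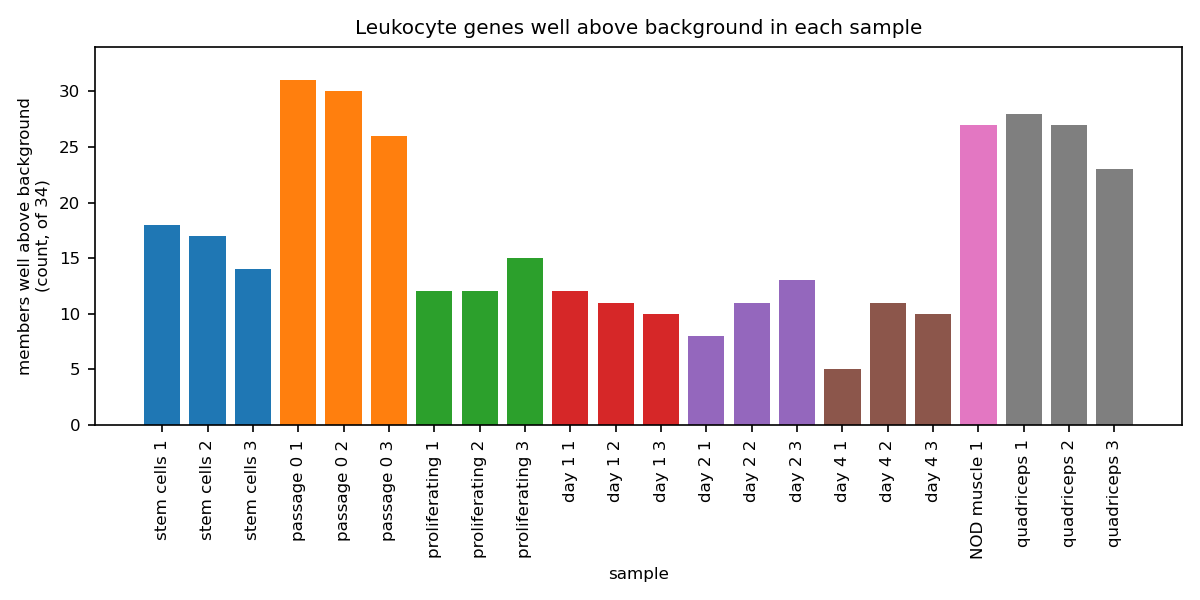
Bars give the number of the 34 leukocyte genes well above background in each of 22 samples, coloured by group. Passage 0 (26 to 31), NOD muscle (27) and quadriceps (23 to 28) stand above the other cultures (5 to 15) and the stem cells (14 to 18).

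Lyz2, Ctss, C1qa, C1qc and Tyrobp had the sharpest pattern. These 5 genes were well above background in all 7 samples of passage 0, quadriceps and NOD muscle and in none of the other 15. They encode a macrophage lysozyme, the lysosomal protease cathepsin S, the A and C chains of C1q, and the adaptor that passes on signals from activating receptors of myeloid cells. At the other end, Cd163, a scavenger receptor for haemoglobin bound to haptoglobin, was above background in no sample, while Csf1r, the receptor of macrophage colony-stimulating factor, and Cd3e, a chain of the T cell receptor complex, were above background in all 22.

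**Figure D2:**
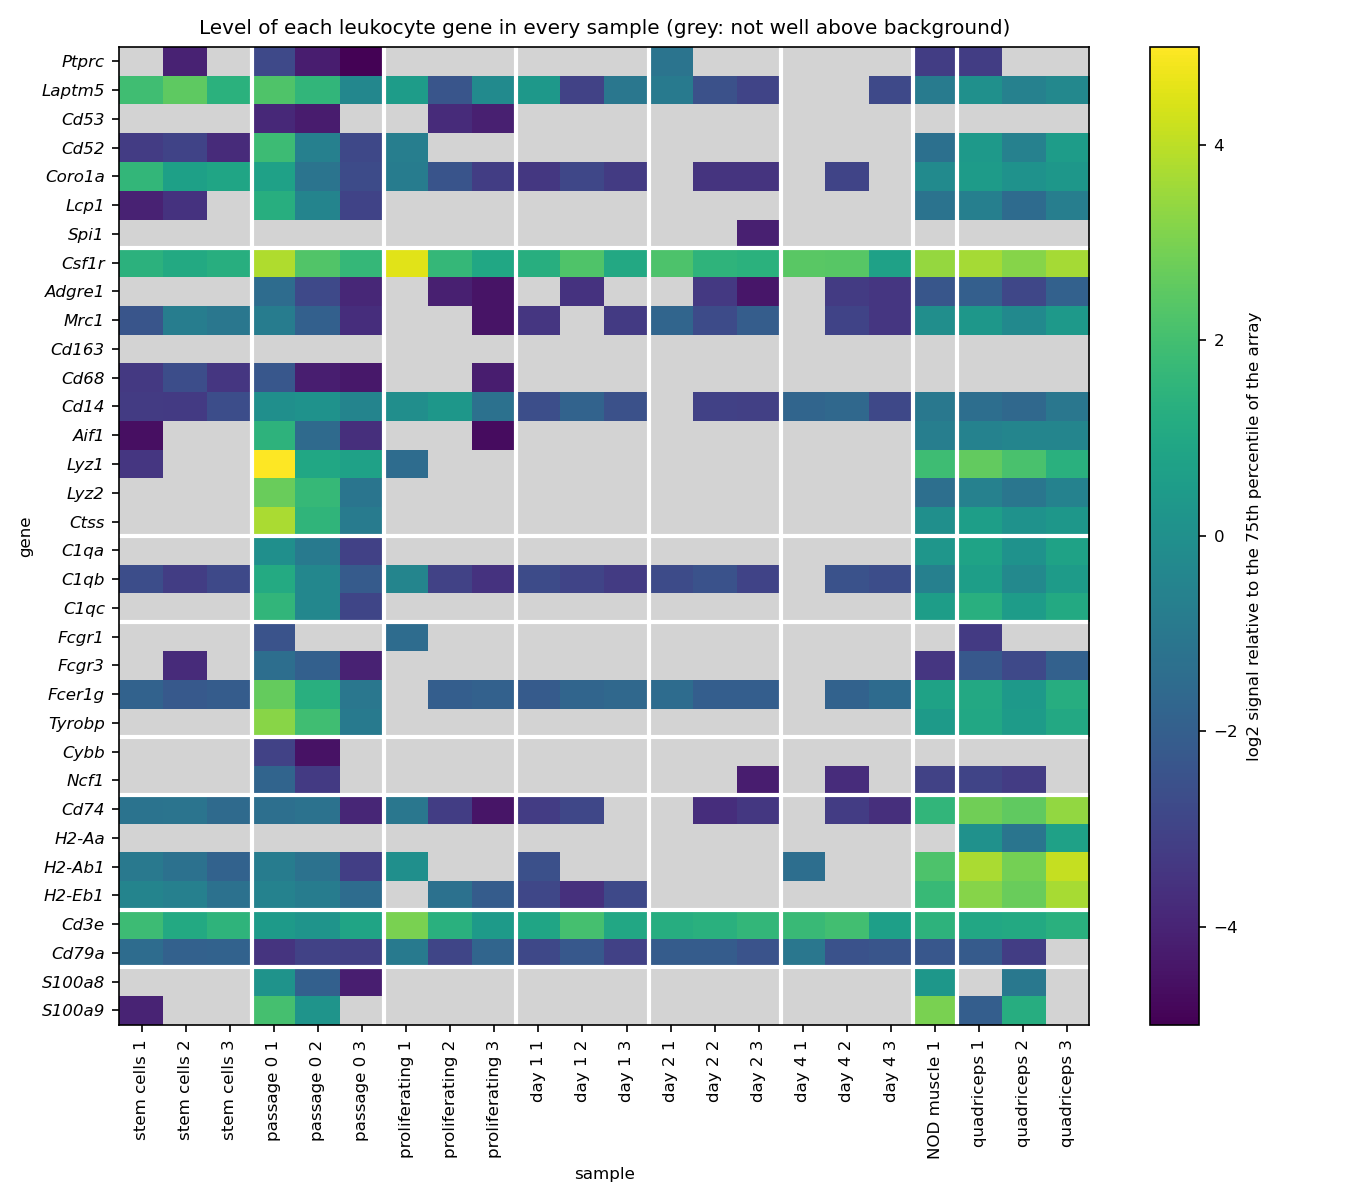
Colour gives the level of each leukocyte gene (rows, by role) in each sample (columns), in log2 units from the 75th percentile of that array, with grey where the probe was not well above background. Lyz2, Ctss, C1qa, C1qc and Tyrobp are coloured only in the passage 0, NOD muscle and quadriceps columns.

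Of these 5 genes, C1qa, C1qc and Lyz2 lie in the genome near relatives that are also among the 34. On mouse build mm9 the C1q probes lie at chr4:136436578-136436637 (C1qb), chr4:136445766-136445825 (C1qc) and chr4:136452409-136452468 (C1qa). The lysozyme probes lie at chr10:116719175-116719234 (Lyz2) and chr10:116724862-116724921 (Lyz1). The 2 lysozyme genes are near-identical copies, and whether either probe also binds the other transcript was not tested. The 250 bases before the start of the gene were available in RefSeq's promoter table (GRCm38.p6) for 25 of the 34 genes, and 4 of the following are shown because they hold the 6 letters GAGGAA, the core bound by the myeloid transcription factor PU.1, the product of the member Spi1. Capitals mark that motif, written as TTCCTC where it lies on the opposite strand. Lyz2, which shares the detection pattern of Ctss and C1qc but not that of C1qb and Mrc1, is shown as a gene without the motif. The windows are chr3:95526536-95526785 on the plus strand for Ctss, chr4:136892915-136893164 on the minus strand for C1qc, chr4:136886201-136886450 on the minus strand for C1qb, chr2:14229164-14229413 on the plus strand for Mrc1 and chr10:117282273-117282522 on the minus strand for Lyz2, each read 5′ to 3′ towards the gene.
Ctss: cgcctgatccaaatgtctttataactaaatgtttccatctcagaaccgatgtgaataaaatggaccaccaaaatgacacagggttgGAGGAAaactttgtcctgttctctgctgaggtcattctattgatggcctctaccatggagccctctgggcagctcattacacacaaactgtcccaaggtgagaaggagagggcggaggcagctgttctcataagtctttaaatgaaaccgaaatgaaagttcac
C1qc: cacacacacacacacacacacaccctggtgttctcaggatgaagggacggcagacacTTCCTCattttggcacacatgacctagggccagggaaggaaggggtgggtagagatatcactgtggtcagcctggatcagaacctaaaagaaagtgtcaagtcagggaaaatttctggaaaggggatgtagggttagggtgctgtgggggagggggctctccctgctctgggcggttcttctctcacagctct
C1qb: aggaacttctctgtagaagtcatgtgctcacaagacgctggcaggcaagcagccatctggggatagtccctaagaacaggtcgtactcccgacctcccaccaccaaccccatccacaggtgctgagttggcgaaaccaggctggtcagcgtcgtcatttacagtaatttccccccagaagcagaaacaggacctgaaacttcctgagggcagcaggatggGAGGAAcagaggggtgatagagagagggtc
Mrc1: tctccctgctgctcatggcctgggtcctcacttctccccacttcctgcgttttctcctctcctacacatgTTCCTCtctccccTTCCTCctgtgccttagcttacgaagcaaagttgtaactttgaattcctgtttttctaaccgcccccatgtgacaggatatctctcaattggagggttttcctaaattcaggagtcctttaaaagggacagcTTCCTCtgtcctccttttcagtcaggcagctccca
Lyz2: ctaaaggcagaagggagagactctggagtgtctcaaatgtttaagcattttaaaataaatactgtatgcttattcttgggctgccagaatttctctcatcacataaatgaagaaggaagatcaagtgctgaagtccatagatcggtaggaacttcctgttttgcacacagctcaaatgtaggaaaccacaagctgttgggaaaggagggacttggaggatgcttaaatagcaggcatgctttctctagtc

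The motif began 164 bases before the start of Ctss, 193 before C1qc and 30 before C1qb, and Mrc1, the mannose receptor of macrophages, had it at 180, 167 and 35. On either strand it was present in 14 of the 25 genes (56.0%), beside 6986 of all 27025 genes in the table (25.9%). This is a description of the letters in these windows, and binding was not measured.

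Pan-leukocyte genes separated the samples less evenly. Cd52, a small surface glycoprotein of lymphocytes and myeloid cells, had levels of 0.43, −0.60 and 0.54 in quadriceps and 1.84, −0.66 and −2.83 at passage 0, and among later myoblasts and myotubes it was above background in proliferating replicate 1 only. Lcp1, an actin-bundling protein of blood cells, reached −0.70, −1.51 and −0.72 in quadriceps and 1.26, −0.48 and −3.00 at passage 0, and was at background in all later myoblasts and myotubes. Laptm5, a lysosomal membrane protein of blood cells, was at 0.02, −0.59 and −0.34 in quadriceps and at 2.26, 1.60 and −0.36 at passage 0, but also at 1.93, 2.53 and 1.37 in stem cells. Coro1a, an actin regulator of leukocytes, likewise had 0.72, −1.16 and −2.71 at passage 0 beside 1.61, 0.68 and 0.86 in stem cells, so neither gene marked leukocytes alone on this array. The common leukocyte antigen Ptprc was dim where it was detected, at −2.81, −4.19 and −4.92 in the passage 0 samples, and its highest level of any sample, −1.16, was in day 2 replicate 1. Cd53, a tetraspanin of leukocytes, was above background in passage 0 replicates 1 and 2 and proliferating replicates 2 and 3, and in no muscle sample. Spi1 was above background in day 2 replicate 3 alone.

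Among macrophage genes, Lyz1 was at 2.61, 2.13 and 1.35 in quadriceps and at 4.97, 0.95 and 0.71 at passage 0, and above background elsewhere only in NOD muscle (1.88), proliferating replicate 1 (−1.45) and stem cell replicate 1 (−3.40). Lyz2 had levels of −0.61, −1.07 and −0.55 in quadriceps and 2.73, 1.72 and −1.13 at passage 0. Ctss had levels of 0.62, 0.09 and 0.31 in quadriceps and 3.71, 1.55 and −0.82 at passage 0. For all 3 genes the quadriceps samples lay close together, inside the wider range of the passage 0 samples. Aif1, a calcium-binding protein of macrophages, gave −0.57, −0.46 and −0.46 in quadriceps and 1.47, −1.53 and −3.67 at passage 0. Adgre1, the F4/80 antigen of mouse macrophages, gave −1.96, −2.89 and −1.90 in quadriceps and −1.46, −2.79 and −3.90 at passage 0. Beyond muscle and passage 0, Aif1 was above background in proliferating replicate 3 and stem cell replicate 1. The brightest Adgre1 probe was so in part of the samples of every later culture stage and in no stem cell line. Its second probe was above background in 2 passage 0 samples and all muscle samples, and in no other sample, so the probes disagreed on the later cultures. Mrc1 had 0.29, −0.26 and 0.36 in quadriceps and −0.82, −1.92 and −3.68 at passage 0, beside −2.35, −0.77 and −1.03 in stem cells, so its stem cell levels overlapped those at passage 0. Cd68, a glycoprotein of macrophage lysosomes, was dim at passage 0 (−2.30, −4.15 and −4.37), at background in all muscle samples, and above it in the stem cells (−3.34, −2.65 and −3.40).

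Csf1r and Cd14, a co-receptor for bacterial lipopolysaccharide, had signal in every group, Csf1r in every sample and Cd14 in all but day 2 replicate 1. Csf1r had levels of 4.56, 1.66 and 0.95 in proliferating myoblasts and 3.80, 2.29 and 1.65 at passage 0, and its quadriceps levels were 3.65, 3.18 and 3.64. The 4.56 came from the dim array of proliferating replicate 1. In stem cells Csf1r was at 1.06 to 1.42 and Cd14 at −3.29 to −2.63, so signal of these probes alone did not mark leukocytes. Cd14 had levels of −0.07, 0.29 and −1.26 in proliferating myoblasts and −0.03, 0.08 and −0.47 at passage 0. The proliferating and passage 0 samples overlapped for both genes. Probes disagreed for Csf1r: the brightest and a second probe were higher in quadriceps than in day 4 myotubes by 1.64 and 1.84 on the log2 scale, and the remaining probe differed by −0.21.

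The complement and Fc receptor genes differed in where they were detected. C1qc was at 1.31, 0.53 and 1.09 in quadriceps and at 1.59, −0.38 and −2.91 at passage 0, and C1qa was at 0.78, 0.09 and 0.76 in quadriceps and at −0.02, −0.90 and −3.08 at passage 0. C1qb had 0.59, −0.28 and 0.48 in quadriceps and 1.11, −0.37 and −2.13 at passage 0, over a signal of −3.20 to −2.63 in stem cells. Tyrobp had 1.02, 0.47 and 1.03 in quadriceps and 3.22, 1.95 and −0.91 at passage 0. Fcer1g, the shared signalling chain of Fc receptors, had 1.03, 0.40 and 1.23 in quadriceps and 2.63, 1.30 and −1.03 at passage 0, with a lower signal in most other samples. Its partner Fcgr3, a low-affinity receptor for immunoglobulin G, was above background in all passage 0 and muscle samples and otherwise only in stem cell replicate 2. The high-affinity receptor Fcgr1 was above background in passage 0 replicate 1, proliferating replicate 1 and quadriceps replicate 1. Cybb, the catalytic subunit of the phagocyte oxidase, was detected in passage 0 replicates 1 and 2 only, and Ncf1, one of its cytosolic partners, in those and in quadriceps replicates 1 and 2, NOD muscle, day 2 replicate 3 and day 4 replicate 2.

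The 3 passage 0 samples differed among themselves in these genes far more than in genes at large. Of the 26 members measured in all 3 samples, 22 were highest in replicate 1 and lowest in replicate 3, and in 21 of these 22 replicate 1 was at least 4-fold above replicate 3. Over all 20057 genes measured in the 3 samples, 2836 (14.1%) had that order and 129 (0.643%) had it with at least 4-fold. The median difference between replicates 1 and 3 was 2.96 on the log2 scale for the 26 members and −0.008 for all genes. In linear terms the ratio of replicate 1 to replicate 3 had a median of 7.80 and was highest for Aif1, at 35.3. Cd14, Cd74, Cd3e and Cd79a were the 4 members outside the order.

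In quadriceps the SD between replicates of the 23 members measured in all 3 samples had a median of 0.402, beside 0.312 for all genes. At passage 0 the 26 members had a median SD of 1.55, from 0.249 to 2.58, beside 0.267 for all genes. Summed levels of fibroblast, myoblast and endothelial markers did not share the order of the passage 0 samples. The brightest probes weigh most in such a sum, and the order was not counted gene by gene for these lists. The summed linear level of the 11 fibroblast and fibro-adipogenic progenitor genes was 42.2, 85.4 and 78.4 in replicates 1, 2 and 3, with 10 above background in each and Dpt in none. The sum of the 10 satellite cell and myoblast genes was 596, 722 and 633, and that of 12 endothelial genes 9.05, 11.7 and 11.1. Counted by detection instead of by sum, further macrophage genes that are not members were above background in 38, 38 and 29 of 44 cases, and further pan-leukocyte genes in 31, 28 and 26 of 34. In bulk RNA a smaller number of cells of a type and less RNA per cell cannot be told apart.

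**Figure D3:**
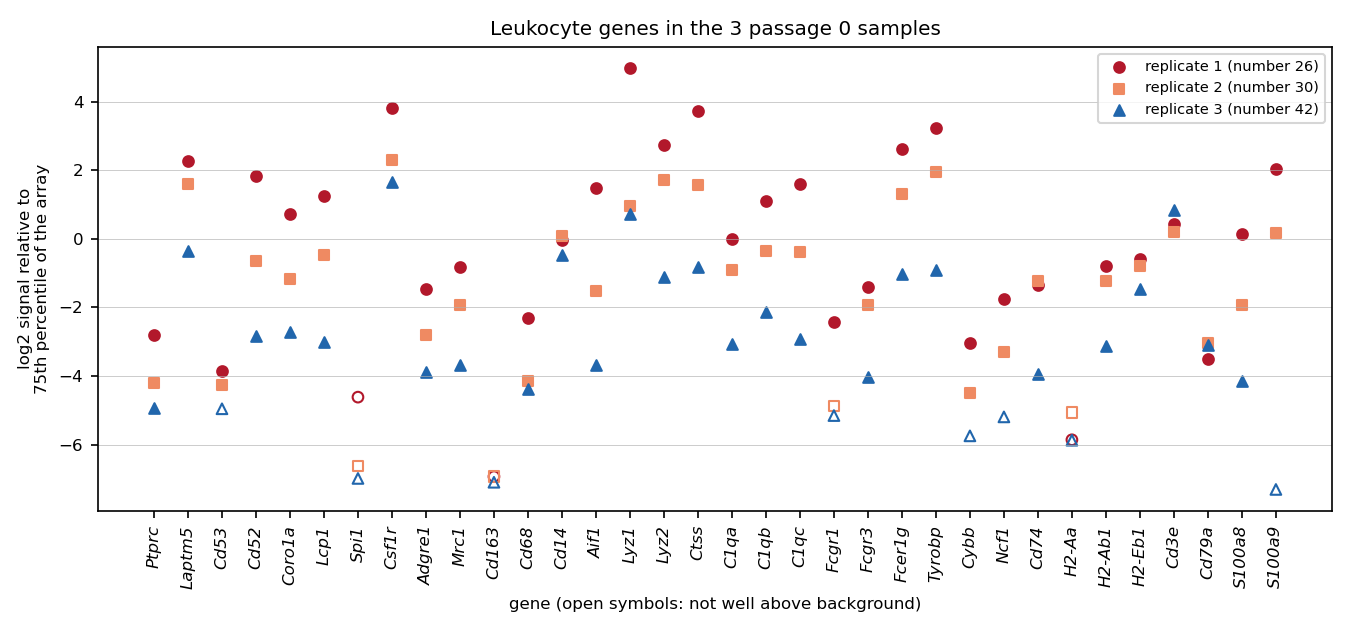
Points give the level of each of the 34 genes in the 3 passage 0 samples, in log2 units from the 75th percentile of that array, with open symbols where the probe was not well above background. Replicate 1 lies highest and replicate 3 lowest in 22 of the 26 genes measured in all 3.

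The comparison of proliferating with passage 0 myoblasts sets later passages against the start of culture. It found 7 leukocyte genes lower and none higher after 8 to 10 passages. They were Lyz1, Lyz2, Ctss, C1qa, C1qc, Fcer1g and Tyrobp, that is, genes of lysozyme, lysosome, complement and Fc receptor signalling. Among all 20300 genes tested, 1.03% were called lower and 0.67% higher (limma, Benjamini-Hochberg adjusted p under 0.05 and at least 2-fold), and 26 members were tested. At an unadjusted p under 0.05, 15 members were lower and 2 higher, beside 1831 lower and 2532 higher of all genes tested. The other 8 members were above background in all 3 samples of neither group. Since a member could pass this filter through passage 0 alone, the count describes these genes and supports no statement about the whole list. The shares of all genes depended on scaling: 1.10% were lower and 1.32% higher with normexp background correction, 1.97% and 0.635% with quantile normalization, and 1.75% and 0.665% in the authors' deposited values.

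Lyz1 fell in proliferating myoblasts (log2 change −7.08 ± 1.20 SE, adjusted p = 0.0055), where only replicate 1 was above background. Its other 2 proliferating values were at background, so that the fitted change rests in part on background and is no measured fold. Fcer1g fell 9.13-fold (−3.19 ± 0.62, adjusted p = 0.013), with 2 of 3 proliferating samples above background. For the other 5, no proliferating sample was above background, so only a lower bound of the fold can be given. For the bound, the passage 0 mean was set against a floor, which on each array was the dim probe's own value or the dimmest value marked above background, whichever was higher. Ctss was at least 37.3-fold lower (adjusted p = 0.00042), Tyrobp at least 34.4-fold (0.0038), Lyz2 at least 28.8-fold (0.00042), C1qc at least 9.005-fold (0.0042) and C1qa at least 5.30-fold (0.0059). The groups did not overlap for any of the 7, which was also the case, with proliferating samples lower, for 9.75% of all genes tested.

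The call depended on which samples shared the estimate of the spread. With only these 2 groups in the fit, none of the 7 passed, with adjusted p between 0.14 and 0.34, nor did any of the 20335 genes tested, while at an unadjusted p under 0.05, 11 members were lower and 1 higher, beside 982 lower and 915 higher of all genes. With normexp background correction C1qa (adjusted p = 0.12) and C1qc (0.071) missed the threshold. Fcer1g missed it without passage 0 replicate 1 (adjusted p = 0.051) or replicate 2 (0.074). Leaving out proliferating replicate 1 or passage 0 replicate 3 gave 11 genes each: the first added Cd52, Lcp1, C1qb and Fcgr3, and the second Lcp1, Mrc1, Aif1 and S100a9. Within slides, each of which held 1 sample of each group, the median change of the 26 members was −4.59 and −3.56 on 2 slides and 0.91 on the slide that paired proliferating replicate 1 with passage 0 replicate 3. Over all slides the median was −2.30, or −1.86 with genes at their bound where there was one, beside 0.14 for all genes tested.

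Members that missed the threshold included Aif1 (−3.37 ± 0.85 SE, adjusted p = 0.051), Lcp1 (−4.01 ± 1.02, 0.054), Mrc1 (−2.20 ± 0.65, 0.095) and Cd52 (−4.04 ± 1.20, 0.099). Cd14 (−0.20 ± 0.39, 0.78), Cd68 (0.02 ± 0.67, 0.99) and Csf1r (−0.19 ± 0.72, 0.89) had differences smaller than their standard errors. Of the further macrophage genes, 9 of 29 tested were lower and none higher, led by the lipid receptor Trem2 (at least 23.7-fold, adjusted p = 0.0071) and Ms4a7 (at least 10.4-fold, 0.011). Further pan-leukocyte genes gave 6 lower of 26, among them Cyth4 (at least 4.56-fold, 0.015). None of 6 lymphocyte genes, 6 neutrophil and mast cell genes or 7 genes of macrophage growth factors and receptors was called by limma, with 1, 3 and 2 of them at an unadjusted p under 0.05. Fibroblast markers moved in the same direction, with 5 of 10 tested lower and summed levels of 38.1, 49.5 and 28.6 in proliferating samples against 42.2, 85.4 and 78.4 at passage 0. Adipocyte markers gave 2 lower and none higher of 3 tested. Of 7 endothelial genes limma called none, with 3 at an unadjusted p under 0.05. The part of other cells in these differences was not tested.

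The number 26 occurs both at passage 0 (replicate 1) and among the proliferating samples (replicate 2). Of the 34 genes, 31 were above background in the passage 0 sample of that number, and 12 were in the proliferating one. Background was the reading in the proliferating sample for 19 of those 31, among them Lyz1, Ctss, Tyrobp and Lyz2, which stood at 4.97, 3.71, 3.22 and 2.73 in the passage 0 sample. Of the 12 genes above background in both, 8 were lower and 4 higher (Cd53, Cd14, Cd3e and Cd79a) in the proliferating sample, with a median difference of −1.99 on the log2 scale. With 1 sample on each side there is no test.

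Passage 0 myoblasts were also compared with the embryonic stem cell lines. Of 26 members tested, 13 were higher and 2 lower at passage 0, beside 17.8% higher and 20.1% lower of 22351 genes tested. The median change was 2.19, or 2.16 with genes at their bound, beside −0.26 for all genes. A member could pass the filter through passage 0 alone: of the 14 members above background throughout both groups, 3 were higher and 2 lower, with a median of −0.42. Cd14 was 7.57-fold higher at passage 0 (2.92 ± 0.39 SE, adjusted p = 9.1e-06). Lyz1 was higher too (7.35 ± 1.20, 7.5e-05), a change that rests in part on background, since only stem cell replicate 1 was above it. Ctss was at least 83.3-fold higher (2.3e-06), Tyrobp at least 79.9-fold (7.2e-06), Lyz2 at least 64.2-fold (4.3e-07), C1qc at least 20.1-fold (1.4e-05), C1qa at least 11.8-fold (1.9e-05), S100a8 at least 7.55-fold (0.00095) and Adgre1 at least 3.62-fold (0.011). Fcer1g (8.14-fold, 0.00066) and C1qb (5.33-fold, 0.0086) were measured in all samples of both groups. Aif1 (log2 change 3.77, 0.0015) and Lcp1 (3.08, 0.022) made up the rest, with 1 and 2 stem cell samples above background.

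Lower at passage 0 than in stem cells were Coro1a (4.29-fold, adjusted p = 0.018) and Cd79a, a chain of the B cell receptor complex (2.78-fold, 0.013). Coro1a missed the threshold without passage 0 replicate 2 or 3 or stem cell replicate 1, and Cd79a without passage 0 replicate 1. A dimmer Cd79a probe, above background in 1 passage 0 sample, differed by −0.89 on the log2 scale. Leaving out passage 0 replicate 3 gave 19 higher, adding Cd53, Cd52, Fcgr3, Cybb, Ncf1 and S100a9. Adgre1 and C1qb missed the threshold without passage 0 replicate 1, and Lcp1 without passage 0 replicate 1 or 2 or stem cell replicate 1 or 3. The within-slide medians were 0.55, 3.23 and 2.29, the lowest on the slide of passage 0 replicate 3. Further macrophage genes gave 16 higher and 2 lower of 31, led by the chemokine Pf4 (at least 69.7-fold, 1.1e-06) and by Gpnmb (2.2e-07), which was above background in 1 stem cell sample. The colony-stimulating factor Csf1, a ligand of Csf1r, was 132.6-fold higher (3.6e-09) and Il34, the other ligand, 7.90-fold (3.8e-06).

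In proliferating myoblasts against stem cells, fewer members could be tested. Of 14, only Cd14 was higher (6.59-fold, 2.72 ± 0.39 SE, adjusted p = 2.3e-05), while Laptm5 (6.205-fold, 0.024), Coro1a (8.995-fold, 0.001) and Mrc1 (log2 change −2.96, 0.0013, with 1 proliferating sample above background) were lower. Among all 21111 genes tested, 16.1% were higher and 20.1% lower. The 20 members not tested include the 5 genes with the sharpest pattern, which were at background in both groups. Laptm5 missed the threshold without proliferating replicate 2 or stem cell replicate 1 or 2. Without proliferating replicate 1, 2 members were higher and 6 lower, adding Cd53 above and Cd52, Cd74 and H2-Ab1 below. The median over the 14 was −0.73 and within slides 0.74, −1.50 and −1.05, with the positive value on the slide of proliferating replicate 1. Both comparisons use the same stem cell samples.

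Few members were measured well enough to follow through differentiation. In day 4 myotubes against proliferating myoblasts, 8 members could be tested, and 2 were lower and none higher, also at an unadjusted p under 0.05, beside 10.7% lower and 15.3% higher of 17386 genes. Cd14 fell 3.28-fold, to −1.74, −1.60 and −2.83 at day 4 against −0.07, 0.29 and −1.26 in proliferating cells (−1.71 ± 0.39 SE, adjusted p = 0.0024). Laptm5 fell (−3.45 ± 0.88, 0.0058), with only replicate 3 above background at day 4, so that its change too rests in part on background. Without proliferating replicate 1, Cd53 and H2-Eb1 were lower as well. Without day 4 replicate 1, which had the fewest spots above background, 11 members and 20148 genes could be tested. At days 1 and 2 the measured levels of Cd14 ran from −3.11 to −1.82. The ligand Csf1 was 8.05-fold lower at day 4 (0.00014) and Il34 4.42-fold lower (0.00023), while Csf1r had a difference of −0.54 ± 0.72 (0.64). Of further macrophage genes Gpnmb was lower (0.001, with 2 of 3 day 4 samples above background) and Tlr2 higher (2.88-fold, 0.02) among 11 tested, and of lymphocyte genes Zap70 (1.7e-06) and Cd5 (3e-05) were higher, with 1 and 2 proliferating samples above background.

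Whole quadriceps was set against day 4 myotubes as the last stage of culture. Of 24 members tested, 19 were higher in quadriceps and none lower (21 and none at an unadjusted p under 0.05), beside 15.3% higher and 16.9% lower of 18509 genes (3889 higher and 4585 lower unadjusted). A member could pass the filter through quadriceps alone, and for 12 of the 19 no day 4 sample was above background. Only 3 members, Csf1r, Cd14 and Cd3e, were above background throughout both groups, and limma called none of these. The median was 4.27, or 3.61 with genes at their bound, beside −0.06 for all genes, and the within-slide medians were 5.11, 3.72 and 4.57. All 4 MHC class II genes were among the 19. H2-Ab1, a beta chain, had levels of 3.75, 2.93 and 4.11 in quadriceps and was above background in 1 day 4 sample (log2 change 7.61, adjusted p = 0.00028), a change that rests in part on background. H2-Eb1, the other beta chain, was at least 121-fold higher (1e-08). Cd74, the invariant chain that chaperones class II, was higher by 6.19 on the log2 scale with 2 day 4 samples above background (2.1e-06), and the alpha chain H2-Aa at least 12.7-fold (4.4e-06). For these 4 genes no quadriceps sample overlapped a day 4 sample, as for 22.5% of all genes tested, counting those higher in quadriceps.

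Of 8 tested genes of macrophage receptors, lysosome and lysozyme, 5 were called higher (Lyz1, Lyz2, Ctss, Mrc1 and Aif1), as were all 3 C1q subunits and the 3 tested genes of Fc receptors and adaptors. Lyz1 was at least 49.9-fold higher in quadriceps (adjusted p = 0.00024), C1qc at least 27.15-fold (7.2e-06), Tyrobp at least 24.7-fold (5.3e-05), C1qa at least 20.1-fold (3e-06) and Ctss at least 17.5-fold (2.8e-05). Mrc1 was 12.7-fold higher (0.00021), Fcer1g 8.15-fold (0.00078) and C1qb 6.58-fold (0.0044), each with 2 of 3 day 4 samples above background, and Aif1 (at least 9.795-fold, 0.00025), Lyz2 (at least 8.25-fold, 8.7e-05) and Fcgr3 (at least 2.77-fold, 0.013) completed the group. Pan-leukocyte genes gave Laptm5 (log2 change 3.83, 0.0021) and Coro1a (3.56, 0.00041), each with 1 day 4 sample above background, and Cd52 (at least 15.04-fold, 0.001) and Lcp1 (at least 7.02-fold, 0.0064). The 7 genes lower in proliferating than in passage 0 myoblasts were all among these 19. Of the 24 members tested here 19 were called, and both filters could be passed through the group with the higher level. The overlap is thus a description and no support for either result, and the overlap over all genes was not counted.

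Csf1r (1.64 ± 0.72 SE, adjusted p = 0.084), Adgre1 (1.26 ± 0.58, 0.10), Cd14 (0.71 ± 0.39, 0.17), Cd3e (−0.34 ± 0.50, 0.64) and Cd79a (−0.71 ± 0.45, 0.23) were not called. A second Adgre1 probe was above background in all quadriceps and no day 4 sample. Marker lists of other cell types moved in the same contrast. Fibroblast genes were higher in 10 of 11 cases with sums of 627, 537 and 446 in quadriceps against 100.2, 54.6 and 37.4 at day 4, and endothelial genes in 11 of 12 with 151, 115 and 96.3 against 43.3, 19.9 and 10.0. Adipocyte genes had sums of 210, 149 and 791 against 0.915, 0.756 and 0.671, and red blood cell genes 134, 156 and 165 against 0.461, 0.317 and 0.251. At day 4, Pdgfra, Dpt, Cdh5, Tie1, Adipoq and Hbb-b2 were at background in all samples. The share of blood in the quadriceps values was not tested.

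**Figure D4:**
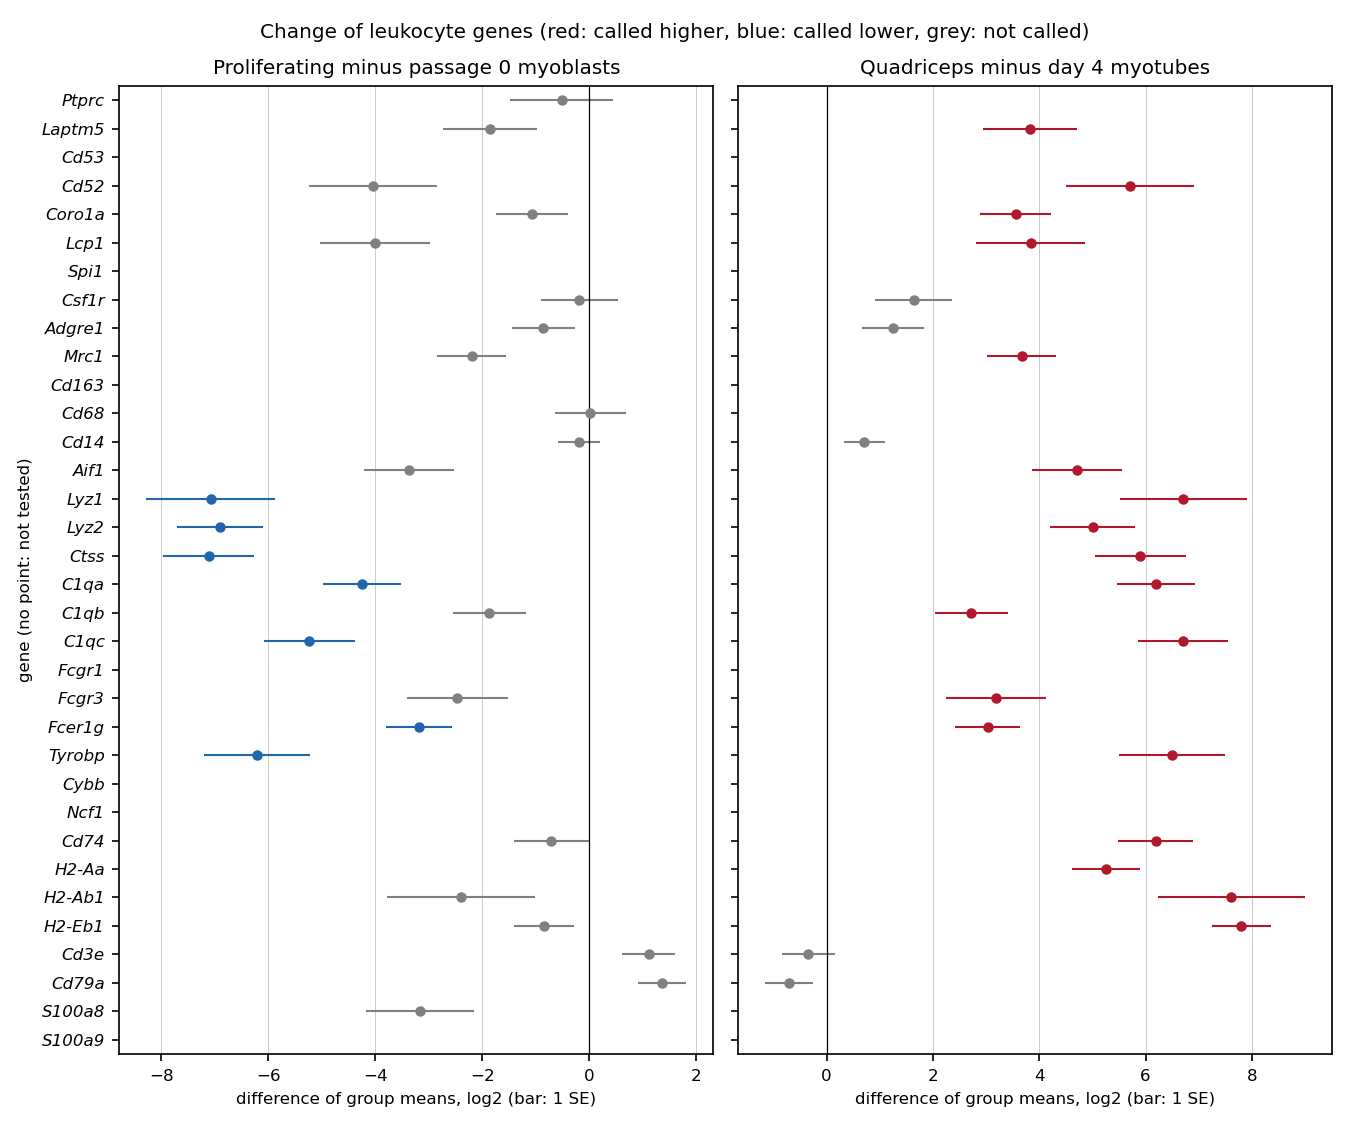
Points give the difference of group means on the log2 scale with bars of 1 SE for each tested leukocyte gene, on the left for proliferating minus passage 0 myoblasts and on the right for quadriceps minus day 4 myotubes. Blue marks the 7 genes called lower on the left, red the 19 called higher on the right, and grey the rest.

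Beyond the members, 17 of 27 further macrophage genes were higher in quadriceps than in day 4 myotubes and 3 lower, led by Pf4 (at least 64.4-fold, adjusted p = 2.9e-06) and the lectin Clec10a (at least 16.25-fold, 2.3e-06). Of 26 further pan-leukocyte genes, 11 were higher and 2 lower, led by Cyth4 (at least 18.5-fold, 4e-05) and the signalling protein Vav1 (at least 4.71-fold, 0.0024). MHC class II accessory genes were higher in 2 of 4 cases, H2-DMb1 (at least 15.55-fold, 0.00017) and Cd209a (at least 2.77-fold, 0.00022). Of 8 lymphocyte genes, Cd2 was higher (at least 4.13-fold, 0.00057) and 2 were lower, Zap70 by the most (15.98-fold, 3.3e-05).

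Quadriceps against passage 0 myoblasts compares the leukocyte genes of tissue with those of the first culture. Here 6 of 27 tested members were higher and 1 lower, beside 23.4% higher and 22.4% lower of 20890 genes, so both shares of the members were at or below the shares of all genes. The 6 higher were the 4 MHC class II genes, Mrc1 and C1qa, and Cd14 was lower. Cd74 had levels of 2.83, 2.54 and 3.38 in quadriceps and −1.35, −1.22 and −3.94 at passage 0 (34.1-fold, 5.09 ± 0.71 SE, adjusted p = 1e-05). H2-Ab1 had 3.75, 2.93 and 4.11 against −0.78, −1.22 and −3.13 (39.5-fold, 5.30 ± 1.39, 0.0039), and H2-Eb1 had 3.19, 2.70 and 3.70 against −0.58, −0.80 and −1.46 (17.7-fold, 4.14 ± 0.56, 7.7e-06). H2-Aa, at 0.04, −1.11 and 0.71 in quadriceps, was at background in every passage 0 sample (at least 27.1-fold, 1.5e-06). No sample of quadriceps overlapped one of passage 0 for any of the 4, which was so for 36.7% of all genes tested, counting those higher in quadriceps. At passage 0, Cd74 (−0.88 ± 0.71, 0.35), H2-Ab1 (−0.36 ± 1.39, 0.86) and H2-Eb1 (−0.14 ± 0.56, 0.86) were not called different from stem cells.

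Mrc1 (4.82-fold, adjusted p = 0.0071) and C1qa (3.67-fold, 0.04) were the others higher in quadriceps, and Cd14 was lower by 2.31-fold (0.016). Without passage 0 replicate 3, Mrc1 and C1qa were no longer called, and 5 members were lower: Cd14, Cd53, Lyz2, Ctss and S100a8. Cd14 was not called without quadriceps replicate 2 or passage 0 replicate 2, and C1qa was called in just 2 of those 6 fits, without quadriceps replicate 2 or passage 0 replicate 1. The calls of Cd74, H2-Aa, H2-Ab1 and H2-Eb1 held whichever of the 6 samples was left out. Within slides the median of the 27 was 2.00, −1.38 and 0.89, negative on the slide of passage 0 replicate 1. Lyz1 (−0.18 ± 1.20, 0.91), Fcer1g (−0.08 ± 0.62, 0.92), Tyrobp (−0.58 ± 1.00, 0.64) and Lyz2 (−1.85 ± 0.81, 0.064) were not called. Among further macrophage genes Clec10a was higher (at least 34.7-fold, 4.9e-07) and Lgals3 lower (53.1-fold, 5.4e-09), of 34 tested with 9 higher and 6 lower, and the accessory genes Cd209a (at least 5.91-fold, 5.3e-06) and H2-DMb1 (6.37-fold, 0.011) were higher. Csf1 was 25.2-fold lower in quadriceps (4.4e-07).

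**Figure D5:**
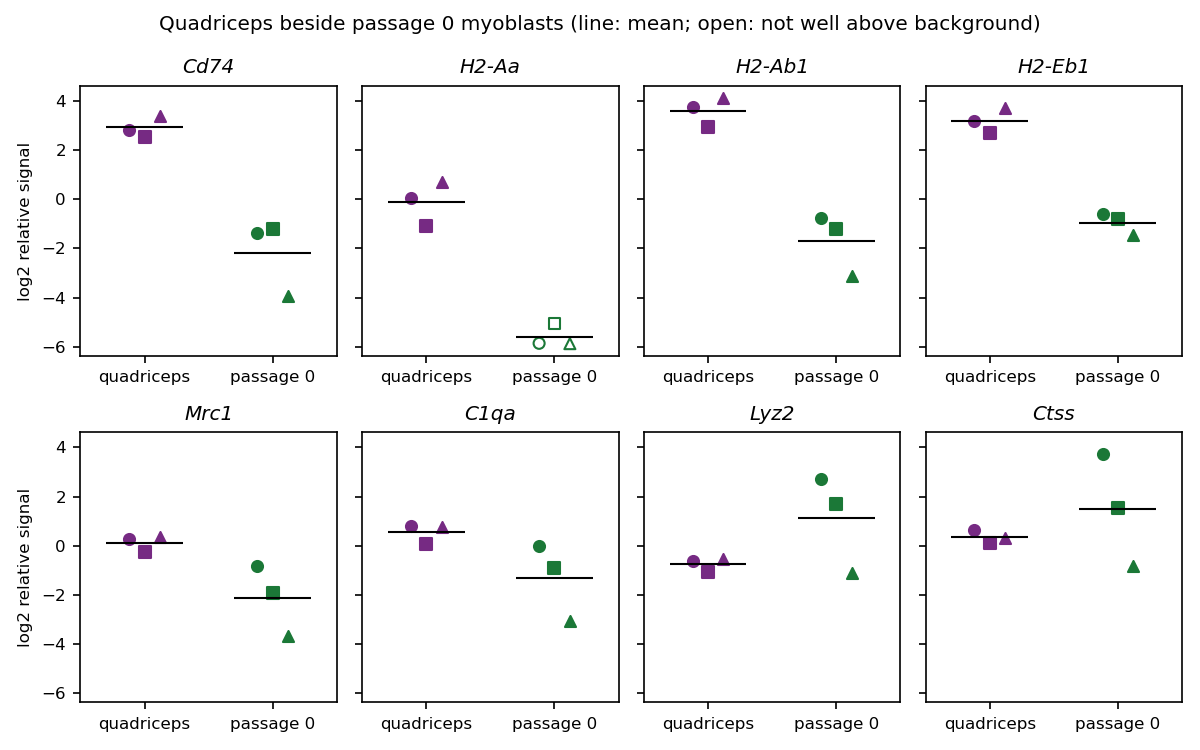
Points give the log2 relative signal of 8 genes in the 3 quadriceps samples (left in each panel) and the 3 passage 0 samples (right), with lines at the means and open symbols where the probe was not well above background. The 4 class II genes (Cd74, H2-Aa, H2-Ab1, H2-Eb1) do not overlap between the groups, while Lyz2 and Ctss do.

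The lymphocyte and neutrophil genes had patterns of their own. Cd3e had levels between 0.20 and 2.98 in all groups and was not called in any of the 6 comparisons. A dimmer Cd79a probe was above background only in the 3 stem cell samples, 1 passage 0 sample and 2 day 2 samples. By its brightest probe, Cd79a had 3 measured samples in every culture group and stem cells. The highest levels of that probe were −0.91 in proliferating replicate 1 and −1.05 in day 4 replicate 1. These arrays had the lowest 75th percentiles (87.7 and 208), so a given signal yields a higher relative level on them. Proliferating replicate 1 also held the highest level of Cd3e. Before scaling, its signals of 46.5 for Cd79a and 690 for Cd3e were the lowest of the 3 proliferating samples. S100a8 and S100a9, whose products form the calprotectin of neutrophils, varied by sample. In quadriceps S100a8 was above background in replicate 2 only, at −1.003, and at passage 0 it had 0.14, −1.92 and −4.16. S100a9 had −2.01 and 1.22 in quadriceps replicates 1 and 2, and 2.03 and 0.18 in passage 0 replicates 1 and 2, and was at background in replicate 3 of both groups. Within these groups both genes were thus highest in quadriceps replicate 2 and in passage 0 replicate 1. The latter was also the highest passage 0 sample for macrophage genes. Quadriceps replicate 2 was instead the lowest of its group by the median of the macrophage receptor, lysosome and lysozyme genes, at −0.77 against −0.59 and −0.50. Neither gene of the pair was tested between quadriceps and day 4 myotubes.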

How the data were processed

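Per the file headers, Agilent Feature Extraction 10.7.3.1 produced the processed intensity per spot from scanned mouse arrays annotated on mm9, and the deposited flags (0 or 1) mark spots above background or out of line. The authors also deposited log2 values in a series matrix, whose column medians are all 6.72 and which correlate with the scanner values at 0.954 to 0.991. Their normalization is not given in the sources used here, and they served as an alternative.

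Processed intensities were converted to log2 and centred per array on the 75th percentile of the 59305 non-control spots among 62976. Outlier spots were left out, spots of a probe averaged, and the brightest probe kept per gene. Of 55681 probes, 26582 were named by RefSeq accession, 2602 by symbol, 492 by synonym, and 26005 kept the file's name. A limma 3.58.1 model (R 4.3.3) with 7 group means was fitted to 21 samples over all genes, leaving 14 residual degrees of freedom. Tests covered genes well above background throughout 1 or both groups, and a call needed at least 2-fold and an adjusted p (Benjamini-Hochberg) below 0.05. The NOD muscle sample, without replicate, stayed outside the fit. Tables and figures were made with Python 3.11.15, numpy 2.4.6, pandas 2.3.3 and matplotlib 3.10.9, and the model was tested on simulated data.

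The members and lists were chosen with earlier results of these data known. All members could be named, and from each other list the 2 called genes with the largest change in a comparison, except where one is not reported here. Same-numbered replicates deviated together in every pair (r 0.152, 0.361 and 0.362 over 12910 genes) only for quadriceps and day 4 myotubes. The labels pair no samples of these groups, and the correlations alone do not show that samples were paired. Proliferating and day 4 samples of the same replicate share a number in their names, with r of 0.649, −0.303 and 0.381. They were not treated as paired in the main fit. Alternatives covered background correction, normalization, filters, probe choice, slide and replicate blocks, the samples in the fit and leaving out each replicate.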

Additional observations from a re-analysis of the deposited data

Results flagged for a closer look

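The single NOD muscle sample was outside the comparisons, and 2 of the 34 genes lay in it above every quadriceps sample by more than 2-fold. S100a8 was at 0.28 in NOD muscle, 1.28 on the log2 scale above the highest quadriceps sample (−1.003), and S100a9 was at 2.97, 1.75 above the highest quadriceps sample (1.22). In quadriceps the highest sample of both genes was replicate 2. With 1 NOD sample there is no test, and strain, individual and muscle cannot be told apart.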

How the results depend on the processing

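Settings under which a gene was not tested were left out of the following counts. Of the 54 calls of single genes in the 6 comparisons, 33 held under every setting that tested the gene. Over the 903 gene and setting pairs so counted, 858 kept the call, 45 lost it and none changed sign. The setting without a minimum fold is the main fit itself, so it could not end a call, and its pairs are among the 858. Leaving out the second E14tg2 array bears on comparisons without stem cells mainly through the shared spread. A call removed because a stricter filter left the gene untested is therefore not among the 45. The counts of members moved more, and the cause was not tested unless the setting itself tested fewer genes. Requiring signal above background in both groups, which tests fewer members, left 0 lower in proliferating against passage 0 myoblasts (main 7), 3 higher at passage 0 against stem cells (main 13), 1 lower in day 4 against proliferating samples (main 2) and 0 higher in quadriceps against day 4 (main 19). Fits with only the 2 groups gave 0 lower in proliferating against passage 0 myoblasts, 1 lower at passage 0 against stem cells (main 2) and 1 lower at day 4. Normexp gave 1 lower at passage 0 against stem cells and 1 lower at day 4. The authors' values gave 1 lower at passage 0 against stem cells and 2 lower in quadriceps against passage 0 (main 1). Quantile normalization gave 3 there, and adding NOD muscle 2. Without a filter, 2 were higher in proliferating cells against stem cells (main 1) and 4 lower at day 4.

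Leaving out 1 replicate gave 6 to 11 lower in proliferating against passage 0 myoblasts. For passage 0 against stem cells it gave 10 to 19 higher and 1 to 2 lower, and for proliferating cells against stem cells 1 to 2 higher and 2 to 6 lower. Day 4 against proliferating gave 2 to 4 lower, quadriceps against day 4 gave 19 to 20 higher, and quadriceps against passage 0 gave 4 to 9 higher and 0 to 5 lower. The labels do not say that replicate numbers pair samples of different groups. With the replicate number as a block, the counts were 10 lower in proliferating against passage 0 myoblasts and 20 higher in quadriceps against day 4. In quadriceps against passage 0 they were 6 higher and 2 lower. The block ended no call in quadriceps against day 4. Quantile normalization moved the median of all genes from 0.14 to −0.05 in proliferating against passage 0, from −0.26 to −0.08 in passage 0 against stem cells and from 0.15 to −0.01 in quadriceps against passage 0. The dim array of proliferating replicate 1 limits what can be seen near background, and the share of all genes called higher in proliferating against passage 0 ran from 0.182% to 7.94% over the replicates left out.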

Other observations

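In NOD muscle 27 of the 34 genes were above background. Its level lay above the range of the 3 quadriceps samples for 4 genes, within it for 13 and below it for 17. The MHC class II genes were among the last. H2-Aa was at background in NOD muscle, against 0.04, −1.11 and 0.71 in quadriceps. It was read by 1 probe in 1 sample of another strain, and whether that probe binds the NOD transcript equally well was not tested. Cd74 was at 1.56 in NOD muscle, 0.98 below the lowest quadriceps sample, H2-Ab1 at 2.22, 0.70 below it, and H2-Eb1 at 1.74, 0.95 below it. Of the macrophage genes, Tyrobp was at 0.46, against 1.02, 0.47 and 1.03 in quadriceps, and Csf1r at 3.43, against 3.65, 3.18 and 3.64.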
